A study of Mus musculus with 3 samples.

Results

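Folate and glycine one-carbon metabolism was followed through 9 genes, chosen by name as the folate uptake and one-carbon enzyme genes with a link to neural tube closure, out of 24062 gene symbols counted. They were *Folr1* and *Slc25a32* for folate uptake, *Mthfd1* and *Shmt1* in the cytosol, *Mthfd1l*, *Mthfd2* and *Shmt2* in mitochondria, and *Gldc* and *Amt* of the glycine cleavage system. RNA-Seq was performed on the rostrum, the front part of the head, of E9 mouse embryos (18 to 22 somites) on the 3H1 Balb strain. The *tuft* embryos were homozygous for a spontaneous nonsense mutation of *Tet1*, which encodes an enzyme that oxidizes methylated cytosine, and had been picked for a neural tube closure defect. The wild-type embryos came from the background strain, so they carried no *tuft* allele, and the sources used here do not call them littermates. RNA of 3 embryos was pooled for a library. The labels name 2 *tuft* samples and 1 wild-type sample, but 1 count column per genotype was analyzed, called the *tuft* and the wild-type library below, and which *tuft* sample the column holds is not known. The error between embryos is therefore not known for any value below.

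Cells carry single carbon units on folate. The folate receptor and carriers in the membrane bring folate into the cell, and SLC25A32 carries it on into mitochondria. There SHMT2 and the glycine cleavage system load carbon from serine and glycine onto folate, and MTHFD2 and MTHFD1L turn it into formate. Formate returns to the cytosol, where MTHFD1 puts it back on folate for the making of purines, thymidylate and methionine. Folic acid taken before and during pregnancy lowers the risk of neural tube defects, and mouse mutants of *Folr1*, *Slc25a32*, *Mthfd1l*, *Gldc* and *Amt* can fail to close the neural tube.

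Of the 9 genes, 3 were 2-fold or more lower in *tuft*, which were *Folr1*, *Amt* and *Mthfd1*. None was 2-fold or more higher. All 3 were also 4-fold or more lower. The other 6 genes lay within 2-fold, and 3 of them, *Slc25a32*, *Mthfd2* and *Shmt2*, had a ratio above 1. These counts stand against a wide spread between the libraries. Of the 12478 genes tested, 37.3% were 2-fold or more lower in *tuft*, 23.2% were 2-fold or more higher and 24.2% were 4-fold or more lower. A share of 3 in 9 is thus near that of all genes. The median log2 ratio of the 9 genes was -0.55 and that of all tested genes was -0.31, with quartiles of -1.93 and 0.90. Among 4657 deeply counted genes, those with a sum of 1000 counts or more over the 2 libraries, 22.3% were 2-fold or more lower and 23.3% were 2-fold or more higher, around a median of 0.02.

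The values were read as follows. Counts on genes summed to 6433067 in *tuft* and 14251942 in wild type, a depth 2.22 times greater in wild type. A level is given as normalized CPM, the count of a gene scaled to a common library size, after the trimmed mean of M-values (TMM) correction. A ratio is *tuft* over wild type on that scale and carries a 95% Clopper-Pearson interval. It reflects only the error of counting, and PCR copies cannot be told from separate molecules because no molecular identifiers were used. A count of 0 allows up to 3 counts, which is 0.535 CPM in *tuft* and 0.184 CPM in wild type. Genes were tested where both libraries together held at least 30 counts, which all 9 did. *Tet1* itself had 32 counts in *tuft* against 435 in wild type, and was 4.67-fold lower (3.26 to 6.91).

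Beside the TMM scale, library totals alone lowered the median of all tested genes by 0.39 on the log2 scale, and each ratio below with it. No gene of the 9 changed side of a ratio of 1 under that or the other scalings. *Gldc* then passed 2-fold, at a log2 ratio of -1.05. In pooled tissue, fewer cells of a type and less RNA per cell cannot be told apart, which holds for every difference below.

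**Figure D1:**
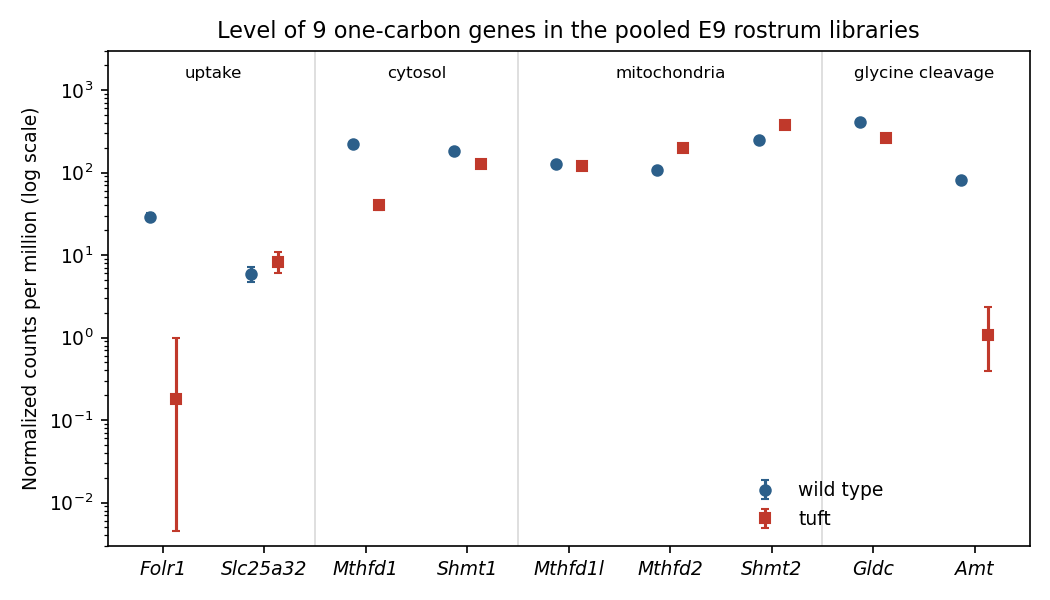
Level of the 9 genes in normalized CPM (log axis) in the wild-type (circles) and *tuft* (squares) libraries, with 95% Poisson intervals for counting error. *Folr1* lay at 29.3 in wild type and 0.178 in *tuft*, and *Amt* at 82.1 and 1.07, whereas *Shmt2* was the highest of the 9 in *tuft*, at 374.1.

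TET1 acts on methylated CG sites, and RefSeq promoters of GRCm38.p6, the build named mm10, were found for 7 of the 9 genes. No methylation was measured in these samples. The 150 bases before a listed start of transcription are shown for *Amt* and *Mthfd1*, which were 4-fold or more lower in *tuft*. They are also shown for *Mthfd2* and *Shmt2*, which had ratios above 1. The starts used for *Mthfd1*, *Mthfd2* and *Mthfd1l* lie inside the spans of these genes given below. Their windows are thus not those before the outer end of the gene. Each CG dinucleotide is in capitals and each strand is read 5′ to 3′.
Amt, chr9:108296755-108296904, plus strand: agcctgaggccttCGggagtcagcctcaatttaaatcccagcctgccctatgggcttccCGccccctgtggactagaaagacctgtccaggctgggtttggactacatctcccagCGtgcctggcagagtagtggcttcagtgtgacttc
Mthfd1, chr12:76255082-76255231, plus strand: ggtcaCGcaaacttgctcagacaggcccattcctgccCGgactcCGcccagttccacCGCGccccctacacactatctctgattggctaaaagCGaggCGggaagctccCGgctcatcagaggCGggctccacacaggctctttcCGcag
Mthfd2, chr6:83317605-83317754, minus strand: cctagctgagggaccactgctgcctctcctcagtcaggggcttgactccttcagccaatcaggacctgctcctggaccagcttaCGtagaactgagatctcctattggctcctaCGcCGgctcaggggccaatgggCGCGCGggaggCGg
Shmt2, chr10:127522445-127522594, minus strand: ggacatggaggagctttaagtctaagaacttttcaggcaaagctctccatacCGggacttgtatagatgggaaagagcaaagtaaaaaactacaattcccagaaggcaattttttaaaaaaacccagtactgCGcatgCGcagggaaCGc

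In the whole window of 300 bases, from 250 before to 50 after the start, *Amt* held 7 CG dinucleotides and *Mthfd1* 16. *Mthfd2* held 15, *Shmt2* 13, *Shmt1* 17, *Gldc* 10 and *Mthfd1l* 8. The median of all 32851 promoters was 7, with quartiles of 3 and 20, and 52.1% of them held as many CG as *Amt* or more. *Amt* thus lay just under the other 5 and *Mthfd1* within their range. *Folr1* and *Slc25a32* were not among the 7 promoters. The letters TGATGNAAT, a form of the element that the amino acid response factor ATF4 binds, were searched on both strands. They occurred in none of the 7 windows and in 0.965% of all promoters. A match this rare would seldom fall in 7 windows, so finding none says little. Binding of ATF4 was not tested.

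Folate uptake, the entry to the pathway, had the lowest median log2 ratio of the 8 pathway lists compared, -2.63. The lists were not matched for level, and the median of tested genes differed with level. At 0.5 to 2 times the mean level of *Slc25a32* it was -1.24, at that of *Folr1* -0.42 and at that of *Mthfd1* 0.24. *Folr1* (chromosome 7 of GRCm38, 101858331 to 101870788) encodes folate receptor alpha, which takes folate up at the surface of neural folds and yolk sac. It had 1 count in *tuft* against 478 in wild type, so the gene was close to undetected in *tuft*. The ratio was 0.00609 (0.000154 to 0.0341), or 164-fold lower with an interval from 29.3 to 6497. That point value rests on 1 count. With counts under 3 set to 3, as for all counts of genes past 2-fold, the log2 ratio was -5.77 in place of -7.36. Among the 3575 tested genes with a mean level between 0.5 and 2 times that of *Folr1*, 90 (2.52%) were as low or lower by ratio, with counts under 3 set to 3. With that floor, a gene needs at least 478 counts in wild type to be as low. Genes in the lower part of this group could not be, even at 0 in *tuft*. The share thus understates how often genes at this level were close to undetected in *tuft*.

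The other genes of folate entry were counted from a list of 6 that includes *Folr1* and *Slc25a32*. In all, 5 of the 6 were 2-fold or more lower in *tuft* and none was 2-fold or more higher, beside 37.3% and 23.2% of all tested genes. At the level of *Folr1* 39.9% of genes were 2-fold or more lower, and at that of *Slc25a32* 53.0% were. *Slc19a1*, the reduced folate carrier, had 14 counts in *tuft* against 823 in wild type and was 20.2-fold lower (12.0 to 37.1). *Slc46a1*, the proton-coupled folate transporter, had 10 and 325 counts and was 11.2-fold lower (5.99 to 23.5). *Lrp2*, an endocytic receptor that also takes part in folate uptake in the neural folds, had 330 and 2609 counts and was 2.72-fold lower (2.42 to 3.05). *Folr2*, a further folate receptor, was at 0 in *tuft* and at 30 counts in wild type. The summed level of the 6 genes was 71.5 CPM in *tuft* and 266.9 CPM in wild type.

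The exception was *Slc25a32* (chromosome 15, 39091230 to 39112720), the mitochondrial folate carrier, with 46 counts in *tuft* against 96 in wild type. Its ratio of 1.40 (0.960 to 2.00) was not distinguishable from 1 at this depth. Within each library, *Slc25a32* gave 46.0 counts for each count of *Folr1* in *tuft* and 0.201 in wild type. This proportion needs no scaling between libraries. It differed 229-fold (37.7 to 9259), with the upper bound set by the single *Folr1* count.

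Several of these uptake genes are also used by the visceral endoderm of the yolk sac, and most markers of that tissue were lower too. Of 11 yolk sac and visceral endoderm markers, 9 were 2-fold or more lower in *tuft* and 1 was 2-fold or more higher. Among all tested genes 37.3% were lower and 23.2% higher by that measure. Their summed level was 334.9 CPM in *tuft* and 2087 CPM in wild type. *Apoa4* and *Apoc2* were at 0 in *tuft* and *Apoa4* had 2856 counts in wild type, whereas *Amn*, a partner of cubilin, had 233 and 338 counts and a ratio of 2.01. The part of yolk sac RNA in the *Folr1*, *Slc46a1* and *Lrp2* values was not tested.

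**Figure D2:**
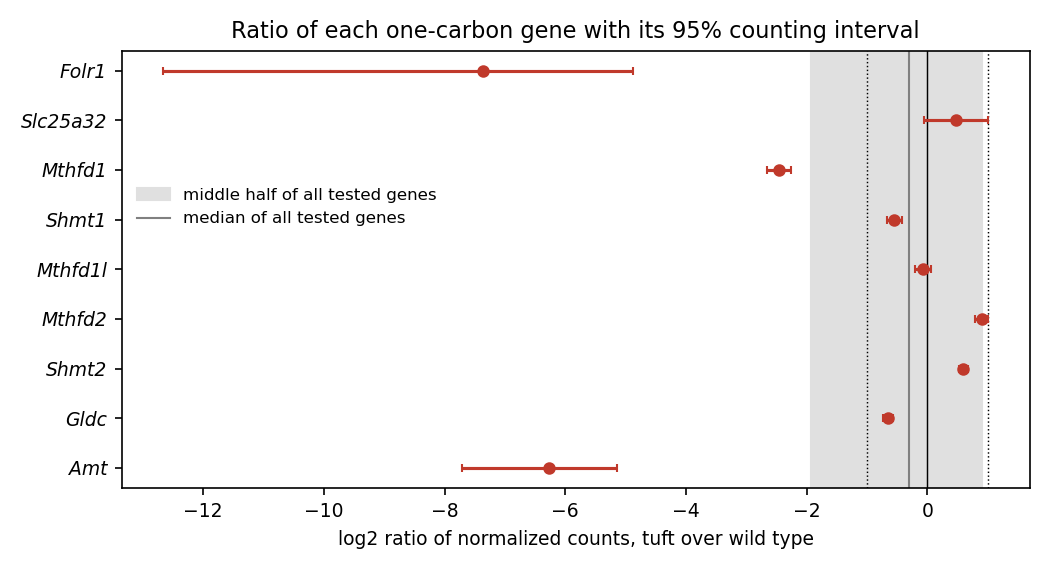
Log2 ratio of normalized counts, *tuft* over wild type, for each of the 9 genes with its 95% counting interval, over the interquartile range of all tested genes (gray, -1.93 to 0.90) and their median (-0.31). Dotted lines mark 2-fold, and *Folr1*, *Mthfd1* and *Amt* lie to the left of the gray band. *Folr1* is drawn at its ratio from 1 count (-7.36).

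In the cytosol, the 2 genes differed in size of change. *Mthfd1* (chromosome 12, 76254406 to 76319820) encodes the enzyme with 3 activities that joins formate to folate and interconverts the products. It had 225 counts in *tuft* against 3585 in wild type and was 5.47-fold lower (4.78 to 6.29). In a group of 2893 genes at 0.5 to 2 times its mean level, 82 (2.83%) were as low or lower. *Shmt1* (chromosome 11, 60788897 to 60811265), the cytosolic serine hydroxymethyltransferase, had 705 and 2998 counts. It was 1.46-fold lower (1.34 to 1.59), which is within 2-fold and above the lower quartile of all genes.

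The wider list of cytosolic folate enzymes was split. Of 8 tested among 10 genes, 4 were 2-fold or more lower and 3 were 2-fold or more higher. The shares of all tested genes were 37.3% and 23.2%. *Tyms*, which makes thymidylate, was 2.30-fold lower (2.05 to 2.59), with 340 and 2279 counts. *Fpgs*, which adds the glutamate tail that keeps folate in the cell, was 2.44-fold lower (2.06 to 2.92).

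The mitochondrial genes *Shmt2*, *Mthfd2* and *Mthfd1l* had ratios near or above 1. This did not hold for *Gldc* and *Amt* of the mitochondrial glycine cleavage system, given below. *Shmt2* (chromosome 10, 127517123 to 127522444), the main enzyme that takes the carbon of serine, had 2099 counts in *tuft* against 4047 in wild type and a ratio of 1.51 (1.43 to 1.59). *Mthfd2* (chromosome 6, 83305704 to 83326011), the mitochondrial dehydrogenase and cyclohydrolase of embryonic and dividing cells, had 1120 and 1743 counts and a ratio of 1.87 (1.73 to 2.02). *Mthfd1l* (chromosome 10, 3972892 to 4167081), which releases formate, had 678 and 2074 counts and a ratio of 0.952 (0.872 to 1.04). The *Mthfd1l* ratio was not distinguishable from 1 by counting error, and none of these 3 was past 2-fold. The upper bound of *Mthfd2* reached just past 2. Of the full list of 8 mitochondrial folate genes, 6 were tested, and 2 were 2-fold or more higher and 1 was 2-fold or more lower. Among all tested genes 23.2% were higher and 37.3% lower by that measure. The 2 higher ones were *Mthfd2l*, the paralog of *Mthfd2*, at 3.72-fold (3.19 to 4.34), and *Mtfmt*, which formylates the initiator tRNA, at 3.32-fold (2.74 to 4.02). *Sardh*, the lower one, was at 0 in *tuft* and at 87 counts in wild type.

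The balance of mitochondrial to cytosolic enzymes was compared within each library, where library size and scaling cancel. *Shmt2* gave 1.35 counts for each count of *Shmt1* in wild type and 2.98 in *tuft*, a 2.21-fold difference (2.00 to 2.44). *Mthfd2* gave 0.486 counts for each count of *Mthfd1* in wild type and 4.98 in *tuft*, a 10.2-fold difference (8.76 to 12.0). *Mthfd1l* gave 0.579 and 3.01 counts for each count of *Mthfd1*, a 5.21-fold difference (4.43 to 6.14). All 3 proportions were higher in *tuft*, which restates the single ratios above, and the last 2 share the low *Mthfd1* count.

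**Figure D3:**
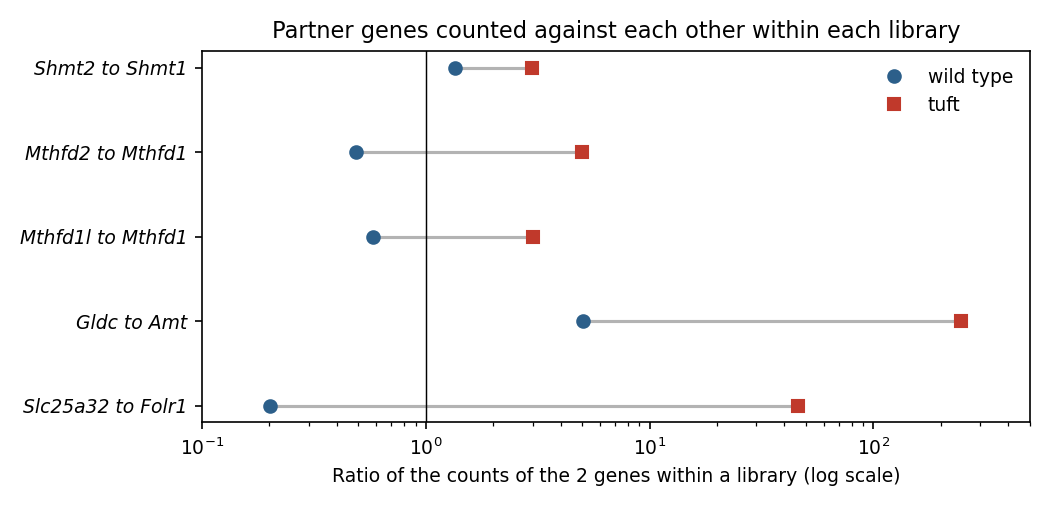
Counts of a gene divided by counts of its partner within the wild-type (circles) and *tuft* (squares) libraries, on a log axis. Every pair was further to the right in *tuft*, with the smallest shift for *Shmt2* to *Shmt1* (1.35 to 2.98) and the largest for *Slc25a32* to *Folr1* (0.201 to 46.0). In each pair the partner had the lower ratio of *tuft* over wild type. The shared direction thus follows from how the pairs were set up and restates the ratios of single genes.

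The glycine cleavage system is a mitochondrial complex of 4 proteins, and its genes did not move together. *Gldc* (chromosome 19, 30098441 to 30175441), the decarboxylase that starts the reaction, had 1476 counts in *tuft* against 6761 in wild type and was 1.57-fold lower (1.49 to 1.67). *Amt* (chromosome 9, 108296905 to 108302302), the aminomethyltransferase that passes the carbon to folate, had 6 counts in *tuft* against 1341 in wild type. It was 76.8-fold lower (35.2 to 209.5). Among 4456 genes at 0.5 to 2 times its mean level, 37 (0.830%) were as low or lower. *Gldc* gave 5.04 counts for each count of *Amt* in wild type and 246.0 in *tuft*, a 48.8-fold difference (22.3 to 133.4).

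The other subunits lay on opposite sides. *Gcsh*, the carrier protein between the enzymes, had 234 and 1403 counts and was 2.06-fold lower (1.79 to 2.37). *Dld*, the dehydrogenase that this complex shares with pyruvate dehydrogenase, had 1781 counts in *tuft* against 589 in wild type and was 8.81-fold higher (8.02 to 9.68). The counting intervals of the 4 ratios did not overlap.

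Levels of the 9 genes were also set beside each other per kilobase of exon. In wild type the order was *Gldc* (110.2 CPM per kb) and *Shmt2* (108.6), whose intervals overlapped, then *Mthfd1* (66.0). *Amt* (48.1) and *Shmt1* (47.3) followed, again with overlapping intervals, and then *Mthfd2* (39.2), *Mthfd1l* (28.6), *Folr1* (12.7) and *Slc25a32* (2.00). In *tuft* the mitochondrial *Shmt2* (164.1 CPM per kb) and *Mthfd2* (73.3) had the highest values with *Gldc* (70.1). The intervals of *Mthfd2* (69.1 to 77.8) and *Gldc* (66.5 to 73.7) overlapped, so their order is not settled. *Amt* (0.627) and *Folr1* (0.0776) had the lowest values, also with overlapping intervals.

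Pathways that feed or use one-carbon units were read from lists of their genes. Over all 8 lists, 43 of the 51 genes outside the 9 were tested, of which 16 were 2-fold or more lower and 14 were 2-fold or more higher, with a median log2 ratio of -0.06. These shares stand beside 37.3% lower and 23.2% higher among all tested genes, so the share that was lower is near that background. With library totals alone these counts were 16 lower and 9 higher. Among 3 serine synthesis genes, *Phgdh*, which starts the pathway, was 5.56-fold higher (5.19 to 5.95), and the other two, *Psat1* and *Psph*, had ratios of 0.799 and 0.660. In the purine list, which consumes formyl folate through *Gart* and *Atic*, 2 of 10 genes were 2-fold or more higher and 2 were 2-fold or more lower. *Gart* was 2.08-fold higher (2.01 to 2.16) and *Atic* had a ratio of 0.945. *Paics* and *Ppat* are known to be read in opposite directions from a shared promoter region. *Paics* was 2.25-fold higher (2.18 to 2.32), and *Ppat*, the first enzyme of the pathway, was 2.46-fold lower (2.23 to 2.72). *Impdh1*, for guanine nucleotides, was 7.87-fold lower (5.99 to 10.5).

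Of 8 tested methionine cycle and transsulfuration genes, 2 were 2-fold or more lower and 2 were 2-fold or more higher. The shares of all tested genes were 37.3% and 23.2%. *Mtrr*, which reactivates methionine synthase, was 2.61-fold higher (2.33 to 2.94), whereas methionine synthase itself, *Mtr*, had a ratio of 0.959 (0.832 to 1.10). *Ahcy*, which clears S-adenosylhomocysteine, was 2.99-fold lower (1.68 to 5.78) on 13 and 113 counts. *Cth*, the last enzyme of cysteine synthesis, was 2.29-fold higher (2.02 to 2.60).

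ATF4 is a transcription factor known to raise serine and mitochondrial folate genes. *Atf4* had 10239 counts in *tuft* against 5067 in wild type and was 5.88-fold higher (5.69 to 6.09). The other genes of its list, which lie outside folate metabolism, were split. *Sesn2* was 8.08-fold higher (7.22 to 9.05) and *Slc7a11*, a cystine transporter, 7.24-fold higher (5.74 to 9.19). *Asns*, asparagine synthetase, was 3.26-fold lower (2.81 to 3.79), and *Ddit3* and *Vldlr* were at 0 in *tuft* with 133 and 152 counts in wild type. Of the 7 tested genes of the list, which include *Atf4* itself, 3 were 2-fold or more higher and 3 were 2-fold or more lower. The higher ones were *Atf4*, *Sesn2* and *Slc7a11*, and the lower ones *Asns*, *Ddit3* and *Vldlr*. Among all tested genes 23.2% were higher and 37.3% lower by that measure.

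**Figure D4:**
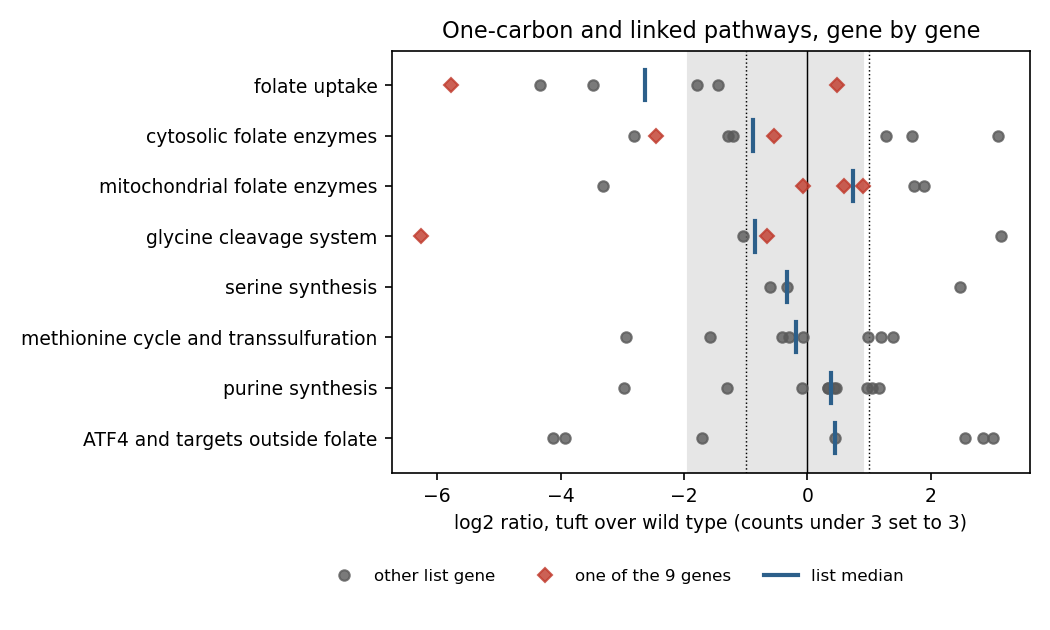
Log2 ratio, *tuft* over wild type with counts under 3 set to 3, of each tested gene in 8 pathway lists. Diamonds are the 9 genes, circles the other list genes, bars the list medians, dotted lines 2-fold and gray the interquartile range of all tested genes. The folate uptake list had the lowest median (-2.63) and mitochondrial folate enzymes the highest (0.75).

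Markers of the cells a rostrum can hold were counted beside these values. For the counts that follow, 37.3% of all tested genes were 2-fold or more lower and 23.2% were 2-fold or more higher. Neural ectoderm was present in both libraries, with 2 of 9 markers 2-fold or more lower and 2 higher, from *Rax* (2 and 389 counts in *tuft* and wild type) to *Six3* (4.14-fold higher). Head mesenchyme and neural crest had 1 of 8 lower and 2 higher, from *Prrx2* (0 and 301 counts) to *Sox10* (11.1-fold higher). Surface ectoderm had 1 of 6 lower, *Cdh1* (4.36-fold), and 1 higher, *Krt8* (3.14-fold). Endothelium had 4 of 5 lower and none higher, from *Pecam1* (0 and 443 counts) to *Tie1* (ratio 0.540), and their summed level was 77.3 CPM in *tuft* and 241.7 CPM in wild type. Erythroid markers had 3 of 9 lower and 3 higher, from *Gata1* (0 and 125 counts) to *Hbb-y* (32.4-fold higher), and their summed level was 40869 CPM in *tuft* and 2873 CPM in wild type. Most of the *tuft* sum came from the globin genes *Hba-x* (21165 CPM) and *Hbb-y* (18521 CPM), whereas the globin gene *Hbb-bh1* had a ratio of 1.08. The part of these cell types in the one-carbon values was not tested.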

How the data were processed

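RNA of the E9 rostrum was pooled from 3 embryos per genotype and sequenced as single-end Ion Proton reads. The authors deposited raw counts per gene symbol, made by trimming with PRINSEQ, aligning to mm10 with TopHat2 2.0.14 on Bowtie2 2.2.5 and counting with htseq-count, whose strand setting and gene models are not given in the sources used here. Each column ends with 5 summary lines, left out of totals, and genes took 27.4% of the *tuft* entries and 37.3% of the wild-type entries. Reads aligned at several places were not counted on genes, which can lower genes with close copies elsewhere. They made up 59.2% of the *tuft* entries and 51.4% of the wild-type entries. The labels name 2 *tuft* samples but a single *tuft* column was analyzed, and which of the 2 it holds, or whether it holds both, is not known.

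Ratios were scaled with the TMM factor of edgeR 4.0.16 (0.761 for *tuft* relative to wild type) in R 4.3.3, and intervals were computed in Python 3.11.15 with scipy 1.17.1. With 1 count column per genotype no test has residual degrees of freedom, so no p-value is given. Genes were called past 2-fold with counts under 3 set to 3. The NOISeq program of the methods was not used, since its noise libraries carry counting error only. Intervals for proportions within a library are exact conditional intervals of an odds ratio. The ratios and intervals were tested on simulated data with counting noise only, in which few genes changed and as many rose as fell. These libraries differ far more widely, so that test does not cover the scaling or the error between embryos here. Exon lengths came from GENCODE M1 (NCBIM37) and positions from RefSeq genes of GRCm38.p6, where *Shmt2* overlaps *Ndufa4l2* (0 and 14 counts in *tuft* and wild type). Of the 9 genes, *Folr1*, *Mthfd1* and *Mthfd1l* overlap gene models named only by a Gm number and *Gldc* a ribosomal protein pseudogene, and reads of overlapping genes could not be separated here.

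The 9 genes and all lists were chosen with earlier results of these data known. From each pathway list, genes past 2-fold with at least 100 counts were named, at most 3 in each direction, and from each marker list the highest and lowest. Some genes that this rule names are not reported here. *Folr2*, *Sardh*, *Psat1*, *Psph*, *Atic*, *Mtr*, *Apoc2*, *Hba-x* and *Hbb-bh1* were named after their values were seen. Alternatives were other scalings (library totals alone, upper quartile, DESeq2 1.42.0 size factors), other count minimums, other thresholds and other treatments of low counts.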

Additional observations from a re-analysis of the deposited data

How the results depend on the processing

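The count of 3 genes past 2-fold was also 3 with upper quartile or DESeq2 size factors, with no minimum or a minimum of 100 counts, with counts of 0 set to 0.5, at a 4-fold threshold and where the whole counting interval had to lie past 2-fold. It was 4 with library totals alone, when *Gldc* was added. The median log2 ratio of the 9 genes, -0.55, was -0.94 with library totals alone, a scaling that moves all genes alike, and between -0.59 and -0.50 with the other scalings. Of the pathway genes outside the 9, 16 were 2-fold or more lower, and 8 at a 4-fold threshold, and 14 were higher, against 9 with library totals alone and 6 at a 4-fold threshold. With 0.5 added to each count, the proportion of *Slc25a32* to *Folr1* differed 153.7-fold, and that of *Gldc* to *Amt* 45.1-fold. No replicate could be left out with 1 count column per genotype. Counting error was widest for *Folr1* and *Amt*, with 1 and 6 counts in *tuft*, and the error between embryos is unknown for every value.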
